A study of Rattus norvegicus with 6 samples.

Results

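Chemokines, interleukins, colony stimulating factors, ligands of the TNF superfamily and their receptors were described in rat endometrial epithelial organoids (rEEOs) and rat bone marrow mesenchymal stem cells (rBMSCs). The genes were taken by symbol: those named as Cxcl, Ccl, Cx3cl1, Cxcr, Ccr, Ackr, Il, Lif, Osm, Clcf1, Crlf, Csf, Tslp, Tnf, Tnfsf, Mif or Ebi3 genes, without Cxcl17, whose expected read counts summed to 10 or more over the 6 libraries. Of 91 genes matching by symbol, 66 reached this sum, out of 13728 genes in the expression table. The other 25 fell below it, among them Csf2, Osm, Il7r, Il2rg and Il10. Il27ra and Il36a lay just inside with 11 counts and Ebi3 with 13, whereas Csf1r and Ccr10 lay just outside with 9 counts and Il36g with 8. Genes without a row in the table, such as Il1a, Il1b, Tnf and Il1rn, were not analysed here.

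The study compared rEEOs with rBMSCs for the repair of injured endometrium, and bulk RNA-seq was performed on both cultured cell types. Both groups held 3 libraries of poly(A)-selected RNA. The rEEOs were grown from glandular fragments of the uterus of young female Sprague-Dawley rats, embedded in Matrigel, in an expansion medium with growth factors and inhibitors that included EGF, FGF-10, noggin, Wnt3a, R-Spondin-1, A83-01 and Y27632. The rBMSCs were purchased as red fluorescent protein-labeled cells and were kept on dishes in another medium, which contained fetal bovine serum. The sex and age of their donor were not given in the sources used here. Cell type, culture format and medium therefore cannot be told apart, and the labels name no treatment of either group. Nothing in the labels ties the 3 libraries of a group to separate animals or cultures, so the p-values measure the spread between these samples, which may be technical.

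Chemokines are small secreted proteins that guide leukocytes along gradients through G protein-coupled receptors, and atypical chemokine receptors bind chemokines without the usual signal. Interleukins of the IL-1 and IL-17 families, like TNF, signal mainly through NF-κB, whereas the IL-6 family and the common gamma chain family signal through JAK and STAT proteins. In the endometrium, epithelial chemokines and cytokines take part in leukocyte traffic, defense against microbes and implantation. Marrow stromal cells are known as a source of Cxcl12, Csf1 and Il7, which maintain hematopoietic cells.

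The libraries held between 10457958 and 15421501 expected counts. All 9 epithelial markers (Epcam, Cdh1, Krt8 and others) were held, and their summed level was 5251 to 5846 TPM (a level scaled for transcript length and library total) in rEEOs and 2.54 to 3 TPM in rBMSCs. All 9 mesenchymal markers summed to 41220 to 43516 TPM in rBMSCs and 172 to 298 TPM in rEEOs, of which Vim made up nearly everything, with Pdgfrb and Thy1 at 0. Of 15 leukocyte markers 8 were held. They summed to 33.6 to 134 TPM in rEEOs and 0.39 to 1.07 TPM in rBMSCs, and almost all of this was Cd68 with 360, 1514 and 1197 counts in the rEEOs libraries. The other 7 had at most 18 counts in any library, with Laptm5 at 0 in all rEEOs libraries. The part of such cells in the differences described here was not tested. Endothelial markers reached at most 0.54 TPM in any library.

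Of the 66 genes, 59 had at least 10 counts in at least 3 libraries and entered edgeR's quasi-likelihood test, which ran over 10607 genes, and a gene was called at a Benjamini-Hochberg adjusted p below 0.05 with an absolute log2 fold change above 2. Of these 59, 43 were called (72.9%), against 29.7% of all genes tested. In rEEOs 28 were higher (47.5%, against 16.3% of all genes) and 15 were lower (25.4%, against 13.3%). In all 52 passed the adjusted p, against 63.4% of all genes tested, with 33 higher (33.3% of all genes) and 19 lower (30.2%) in rEEOs. Thus 9 it with a smaller change, and 7 did not pass. The median log2 fold change was 1.71 over the 59 genes and 0.077 over all genes, and the median absolute log2 fold change was 4.65 and 0.994. For 28 of the 59, the count filter was met by 1 cell type only, so that these genes had to differ. Among chemokine ligands they were Cxcl1, Cxcl2, Cxcl3, Cxcl6, Cxcl11, Cxcl12, Cxcl14, Ccl2, Ccl7 and Ccl20. They also include Cxcr4, Il18, Il1rl2, Il6, Il17rb, Il17rd, Il20rb, Il15ra, Il7, Tslp, Il12rb2, Il23a, Csf3, Il34, Tnfsf10, Tnfsf18 and Il16. The adjusted p of these genes is no separate evidence that they differ. The counts and medians describe the list without being evidence of its direction. In bulk RNA, fewer cells of a type and less RNA per cell cannot be told apart.

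By role, among 34 ligands tested, 20 were higher and 7 lower in rEEOs, and among 25 receptors, subunits and binding proteins 8 were higher and 8 lower. Over all genes tested 16.3% were higher and 13.3% lower. As 28 of the 59 members met the count filter through 1 cell type only, these counts are not evidence of a direction. The summed level of the 38 ligands was 468 ± 1.14 TPM in rBMSCs and 3772 ± 666 TPM in rEEOs (SD, n = 3). Mif supplied the largest part of the rEEOs sum. The 28 receptors, subunits and binding proteins summed to 1138 ± 49.3 TPM in rBMSCs and 439 ± 243 TPM in rEEOs, and Il1rl1 made up most of the rBMSCs sum.

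**Figure D1:**
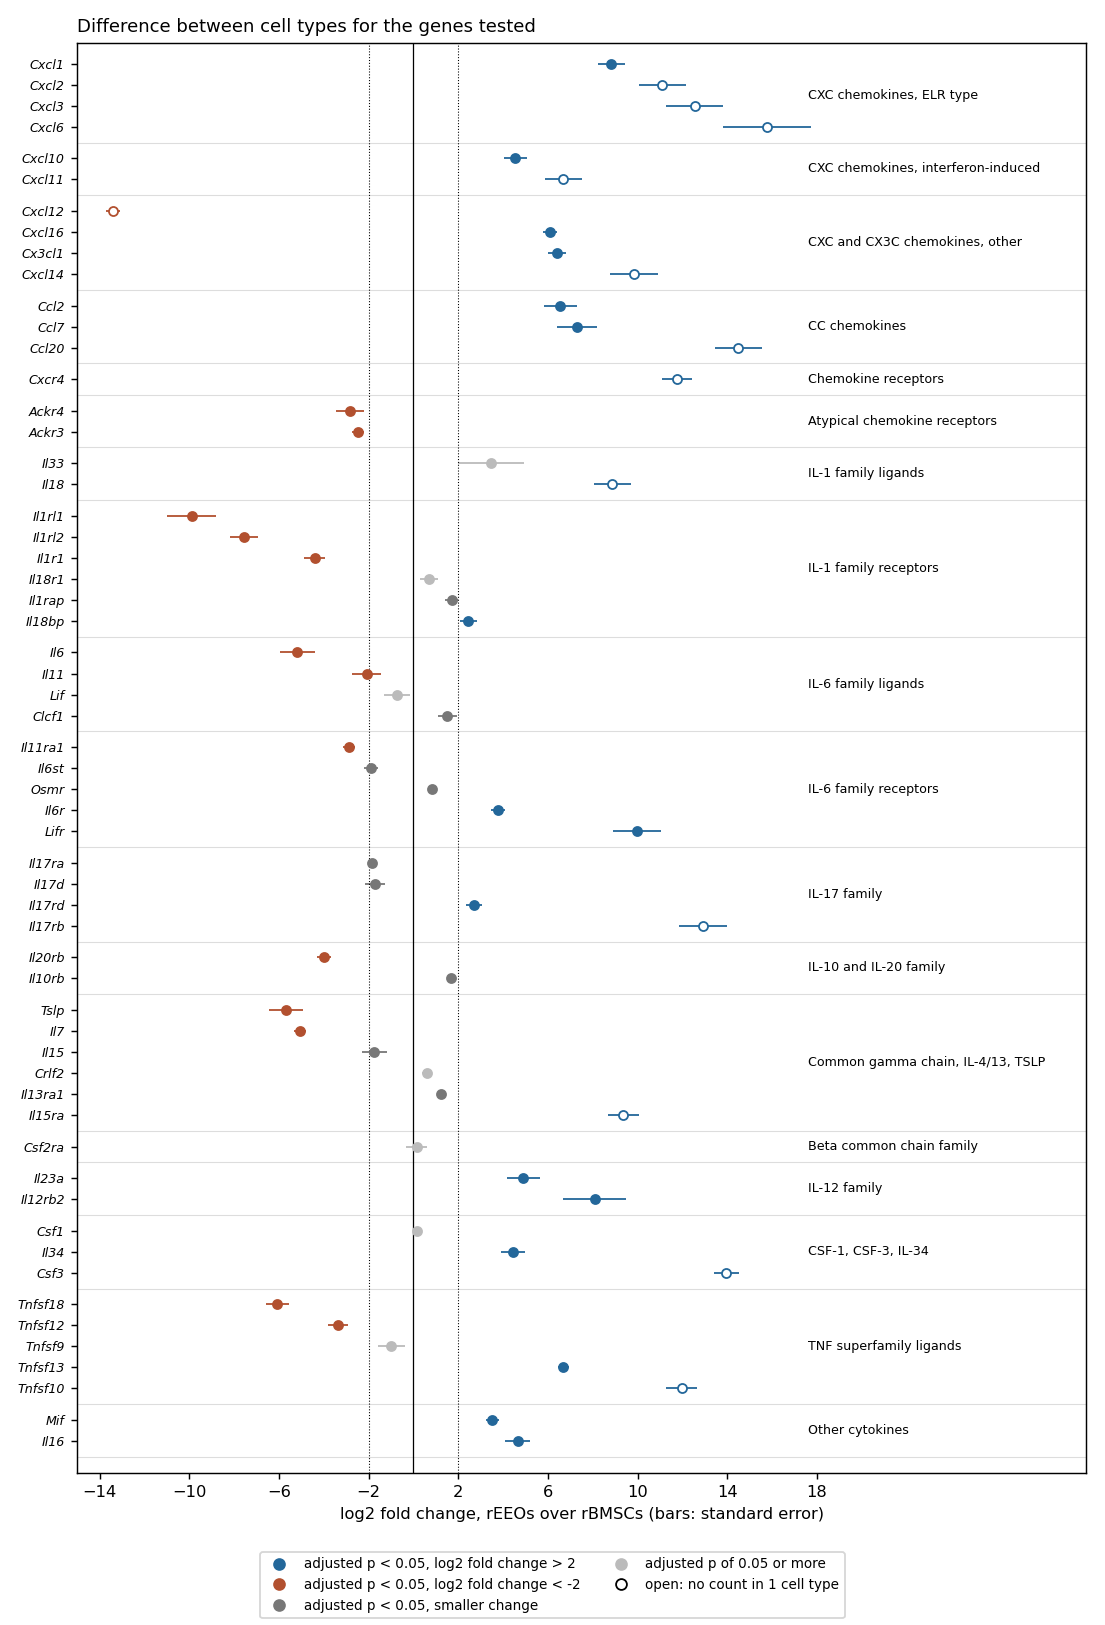
The log2 fold change of rEEOs over rBMSCs (horizontal axis, bars are standard errors) is plotted for the genes tested, grouped by role. Blue points right of the dotted line at 2 are called higher, brown points left of -2 are called lower and gray points are not called (Il33 among them), and open points, whose fitted value depends on the prior count, have no count in 1 cell type. All 4 ELR-type CXC chemokines lie on the right and the IL-1 family receptors Il1rl1, Il1rl2 and Il1r1 on the left.

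The promoters of 5 of the genes are shown first, since they carry the letters of a κB site, the DNA element bound by NF-κB, in genes that went in both directions. The sequences are from RefSeq on the GRCr8 assembly, 250 bases before the annotated start and 50 after it, 5′ to 3′ on the strand of the gene. Capitals mark matches on either strand to a motif of 10 letters, GGGA followed by any 2 bases and then TTCC. The positions are chr14:17479272-17479571 (minus strand) for Cxcl1, chr14:17596368-17596667 (minus) for Cxcl6, chr14:15988816-15989115 (plus) for Cxcl10, chr10:67513845-67514144 (plus) for Ccl7 and chr4:5894526-5894825 (minus) for Il6.
Cxcl1: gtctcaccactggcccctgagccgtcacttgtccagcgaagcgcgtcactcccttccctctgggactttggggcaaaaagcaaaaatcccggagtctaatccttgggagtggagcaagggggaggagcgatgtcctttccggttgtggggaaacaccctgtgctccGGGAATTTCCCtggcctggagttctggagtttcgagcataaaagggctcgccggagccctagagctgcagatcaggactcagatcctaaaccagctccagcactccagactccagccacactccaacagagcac
Cxcl6: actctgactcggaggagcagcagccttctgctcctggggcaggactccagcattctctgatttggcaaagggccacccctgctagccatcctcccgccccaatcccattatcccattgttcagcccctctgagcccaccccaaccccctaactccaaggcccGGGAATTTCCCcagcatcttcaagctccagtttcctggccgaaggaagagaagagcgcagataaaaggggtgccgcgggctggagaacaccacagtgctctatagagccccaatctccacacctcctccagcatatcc
Cxcl10: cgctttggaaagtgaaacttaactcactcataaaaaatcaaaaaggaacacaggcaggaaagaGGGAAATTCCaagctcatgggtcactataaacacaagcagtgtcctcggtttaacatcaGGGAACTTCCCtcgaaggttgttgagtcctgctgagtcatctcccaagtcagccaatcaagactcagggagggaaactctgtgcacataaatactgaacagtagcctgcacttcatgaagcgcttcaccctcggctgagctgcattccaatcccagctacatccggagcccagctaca
Ccl7: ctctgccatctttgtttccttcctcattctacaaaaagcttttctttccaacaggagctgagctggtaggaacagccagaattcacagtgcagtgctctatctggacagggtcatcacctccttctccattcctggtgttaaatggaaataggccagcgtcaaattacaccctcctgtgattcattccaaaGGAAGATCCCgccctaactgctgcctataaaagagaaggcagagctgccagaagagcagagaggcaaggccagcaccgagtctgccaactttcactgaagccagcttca
Il6: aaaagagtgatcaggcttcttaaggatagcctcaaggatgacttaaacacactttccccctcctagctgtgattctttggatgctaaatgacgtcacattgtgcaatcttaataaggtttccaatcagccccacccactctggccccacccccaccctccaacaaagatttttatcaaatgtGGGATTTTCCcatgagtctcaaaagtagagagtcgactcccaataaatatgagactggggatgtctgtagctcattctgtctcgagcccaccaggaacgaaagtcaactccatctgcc
The match begins 84 bases before the start in Cxcl1 and 88 bases before it in Cxcl6, where matches on both strands overlap into a run of 11 letters. In Cxcl10 there are 2 runs, 187 and 128 bases before the start, in Ccl7 the match begins 59 bases before it and in Il6 68 bases before it. All 66 genes matched RefSeq by gene ID and 50 of them had a promoter entry, of which 7 (14%) held a match: Cxcl1, Cxcl6, Cxcl10, Cxcl11, Ccl7, Il6 and Tslp. The share was 1.38% over 27457 genes with a promoter and 1.74% over 8374 genes tested. By direction, 5 of 24 called higher in rEEOs (20.8%) and 2 of 11 called lower (18.2%) held one. The STAT element TTCNNNGAA was present in 6 of the 50 (12%), against 9.39% over all genes and 7.19% over genes tested, in 3 of 24 called higher and 0 of 11 called lower. A gene with several promoter entries was counted where any of them matched. Tslp for the κB letters and Il12rb2 for the STAT letters each also had an entry without a match. A match of letters is a description and not evidence of binding. Only these letters were searched, so a promoter without a match, such as that of Cxcl2, is not shown to lack a κB site. Cxcl10 and Cxcl11 are direct neighbors and Cxcl1 and Cxcl6 lie in the same cluster, so the matches may not be separate cases. How alike these sequences are was not examined.

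The ELR-type CXC chemokines, which attract neutrophils through Cxcr2, were higher in rEEOs in 4 of 4 genes, against 16.3% of all genes tested. All 4 met the count filter through rEEOs only, so that they had to differ. Their summed level was 0.76, 0.57 and 1.26 TPM in the rBMSCs libraries and 1471, 258 and 871 TPM in the rEEOs libraries. Cxcl1 had 0.76, 0.57 and 1.26 TPM in rBMSCs and 301, 177 and 497 TPM in rEEOs, a log2 fold change of 8.83 ± 0.60 (SE, edgeR adjusted p = 5.31e-05). No rEEOs library came near the rBMSCs levels. Cxcl6 had no count in rBMSCs and 1029, 48.6 and 259 TPM in rEEOs, at least 2353-fold higher (adjusted p = 0.00256). The difference between rEEOs replicates 1 and 2 was 21.2-fold, and without replicate 1 the log2 fold change was 14.75 in place of 15.79. Both values depend on the prior count, and the lowest value for Cxcl6 over the alternatives run was 7.89. Cxcl3 had no count in rBMSCs and 113, 19.7 and 75.1 TPM in rEEOs, at least 249-fold higher (adjusted p = 0.00132). Cxcl2, also without a count in rBMSCs, had 27.95, 12.26 and 40.0 TPM in rEEOs and was at least 91.1-fold higher (adjusted p = 0.00106). All these bounds were taken against 3 counts in each library and cover counting error only. Replicate 2 had the lowest level of all 4 genes among the rEEOs libraries. In GRCr8 Cxcl1 and Cxcl2 are direct neighbors, with Cxcl3 and Cxcl6 close by in the same cluster, and the expected counts of all 4 were whole (to within 1e-06) in every library.

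Cxcl10 and Cxcl11, interferon-induced ligands of Cxcr3 and also direct neighbors, were both higher in rEEOs. Cxcl10 had 1.14, 0.64 and 0.71 TPM in rBMSCs and 11.4, 13.1 and 23.1 TPM in rEEOs, a log2 fold change of 4.55 ± 0.51 (edgeR adjusted p = 4.05e-04). Cxcl11 had no count in rBMSCs and only 11, 12 and 14 counts in the rEEOs libraries, at least 4.25-fold higher (adjusted p = 0.00249). Its call was lost in limma on log2(TPM + 1), where the log2 fold change was 1.20.

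Of the remaining CXC and CX3C chemokines 3 were higher in rEEOs and 1 was lower, against 16.3% and 13.3% of all genes tested. Cxcl12 and Cxcl14 met the count filter through 1 cell type only, so that they had to differ. Cxcl16, a transmembrane chemokine, had 2.33, 1.94 and 1.94 TPM in rBMSCs and 99.7, 122 and 124 TPM in rEEOs (log2 fold change 6.09 ± 0.30, edgeR adjusted p = 1.77e-05). It had one of the narrowest ranges in TPM among the rEEOs libraries, 1.25-fold. Cx3cl1, the other membrane-bound chemokine, had 0.67, 0.67 and 0.56 TPM in rBMSCs and 85.5, 26.8 and 40.6 TPM in rEEOs (6.40 ± 0.40, adjusted p = 3.73e-05). Cxcl14, an epithelial chemokine, had no count in rBMSCs and 4.97, 9.86 and 4.55 TPM in rEEOs, at least 38.1-fold higher (adjusted p = 0.00161). Cxcl12, the stromal chemokine that retains stem cells in the marrow, was the reverse case. Its level was 61.3, 65.3 and 62.8 TPM in rBMSCs and it was without a count in all 3 rEEOs libraries, a difference of at least 437-fold (adjusted p = 1.96e-05).

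All 3 CC chemokines tested were higher in rEEOs, against 16.3% of all genes tested. All 3 met the count filter through rEEOs only, so that they had to differ. Ccl20, which attracts Ccr6-bearing lymphocytes and dendritic cells, had no count in rBMSCs and 256, 459 and 538 TPM in rEEOs, at least 961-fold higher (edgeR adjusted p = 4.36e-04). Ccl2, a monocyte attractant, had 0.61, 0.56 and 0.42 TPM in rBMSCs, from 8 counts in all, and 28.4, 22.0 and 74.2 TPM in rEEOs. The ratio of its summed counts was 93.2 (95% counting interval 47.0 to 217, adjusted p = 4.41e-04), and without rEEOs replicate 3 its log2 fold change was 5.70 in place of 6.55. Its neighbor Ccl7, also a monocyte attractant, had 1, 0 and 0 counts in rBMSCs and 6.39, 11.1 and 14.2 TPM in rEEOs (adjusted p = 5.98e-04), and its log2 fold change was 7.28, or 9.15 without rBMSCs replicate 1, which leaves no count in rBMSCs so that the value depends on the prior count. Ccl27 was not tested, with 1 count in each rBMSCs library and 1, 11 and 9 counts in the rEEOs libraries. Over all 14 chemokine ligands, the summed level was 67.3, 70.03 and 67.8 TPM in rBMSCs, of which Cxcl12 made up most, and 1965, 926 and 1696 TPM in rEEOs.

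Chemokine receptors were few. Cxcr4, the receptor of Cxcl12, had no count in rBMSCs and 23.3, 28.5 and 18.8 TPM in rEEOs, at least 144-fold higher (edgeR adjusted p = 2.08e-04). Ackr3, the atypical receptor that takes up Cxcl12, had 36.8, 37.6 and 39.0 TPM in rBMSCs and 4.68, 4.98 and 6.83 TPM in rEEOs (log2 fold change -2.48 ± 0.27, adjusted p = 3.67e-04). Thus rBMSCs held transcripts of Cxcl12 and Ackr3 with no count of Cxcr4, and rEEOs held Cxcr4 and a lower level of Ackr3 with no count of Cxcl12. Ackr4, which takes up CC chemokines, was lower in rEEOs, with 1.82, 2.04 and 1.11 TPM in rBMSCs and 0.49, 0.07 and 0.07 TPM in rEEOs (-2.85 ± 0.62, adjusted p = 0.00738). Without rEEOs replicate 1 its value was -4.09, and in limma on log2(TPM + 1) it was -1.14 and no longer called. Cxcr2 and Cxcr5 were not tested. Cxcr2, the receptor of the ELR-type chemokines, had no count in rBMSCs and 25, 5 and 7 counts in rEEOs, and Cxcr5 had at most 11 counts in any library. Ccr6, Ccr2 and Cxcr6 were not analysed here.

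**Figure D2:**
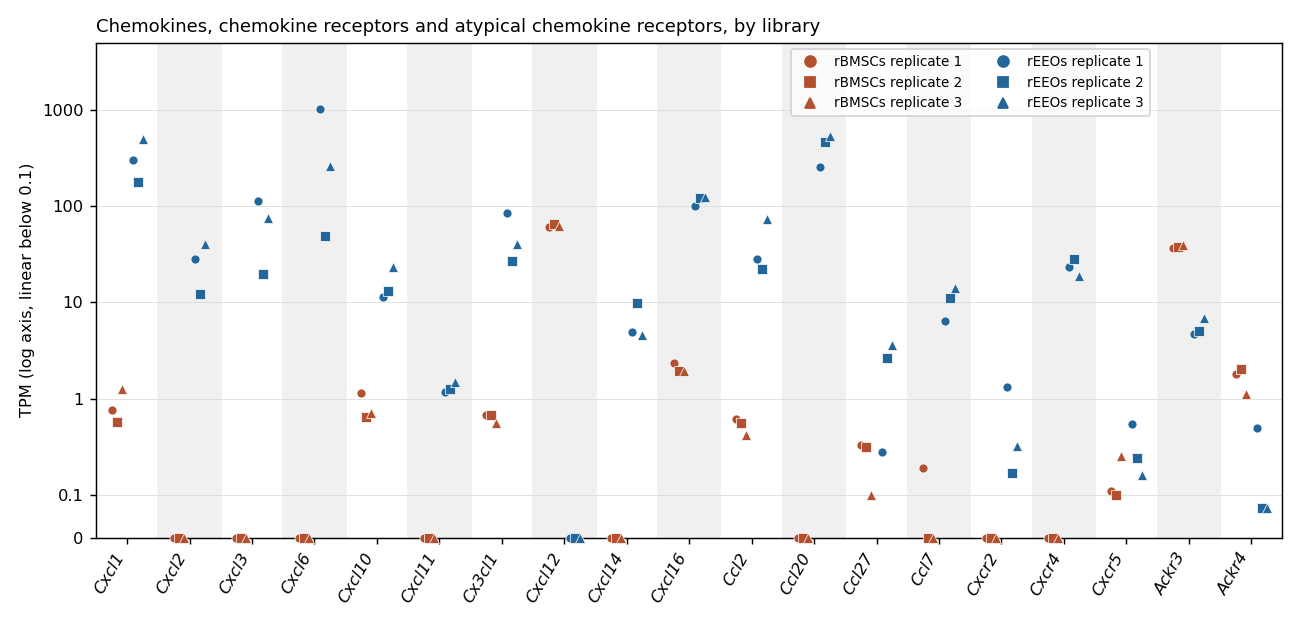
TPM (log axis, linear below 0.1) of the 14 chemokines, 3 chemokine receptors and 2 atypical receptors is plotted for each library, with rBMSCs in brown and rEEOs in blue and the replicate given by the shape. Cxcl12 is between 61.3 and 65.3 TPM in rBMSCs and at 0 in rEEOs, and Cxcl6 spans 48.6 to 1029 TPM in rEEOs and is at 0 in rBMSCs.

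In the IL-1 family, the ligand Il18 and the binding protein Il18bp were called higher in rEEOs and 3 receptors were called lower. Over all genes tested 16.3% were called higher and 13.3% lower. Il18, a ligand stored as an inactive precursor, had no count in rBMSCs and 9.23, 13.4 and 10.4 TPM in rEEOs, at least 19.5-fold higher (edgeR adjusted p = 0.00103). Il18bp, its secreted inhibitor, was also higher, with 3.46, 1.85 and 2.85 TPM in rBMSCs and 21.5, 34.8 and 41.8 TPM in rEEOs (log2 fold change 2.45 ± 0.38, adjusted p = 0.00172). Il18r1, the receptor chain that binds Il18, stayed below 2 TPM everywhere, at 0.67, 0.60 and 0.65 TPM in rBMSCs and 1.79, 0.49 and 0.97 TPM in rEEOs, and did not pass the test (0.68 ± 0.40, adjusted p = 0.179).

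Il1rl1, the receptor of Il33, had the highest level of the 66 genes in rBMSCs. It had 576, 577 and 663 TPM there and 1.65, 0.04 and 0.09 TPM in rEEOs (log2 fold change -9.89 ± 1.09, edgeR adjusted p = 3.89e-04), and without rEEOs replicate 1 the value was -12.63. The symbol covers both the membrane receptor and its soluble decoy form, which a level per gene does not separate. Il33, an alarmin of epithelial and stromal nuclei, had 3.34, 3.35 and 3.22 TPM in rBMSCs and 109, 1.02 and 3.98 TPM in rEEOs. The groups overlapped, and the gene did not pass (3.47 ± 1.48, adjusted p = 0.0807). Replicate 1 of rEEOs decided this value, since the log2 fold change was 0.01 without it. Without rEEOs replicate 2 it was 4.06 with an adjusted p of 0.0258.

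Il1r1, the signaling receptor of IL-1, had 18.8, 16.2 and 20.3 TPM in rBMSCs and 1.43, 0.32 and 0.56 TPM in rEEOs (log2 fold change -4.41 ± 0.48, edgeR adjusted p = 3.52e-04). Il1rl2, the receptor of the IL-36 ligands, had 7.48, 7.20 and 8.37 TPM in rBMSCs and 2, 0 and 0 counts in rEEOs (-7.57 ± 0.64, adjusted p = 1.26e-04). Its value was -10.12 without rEEOs replicate 1, and depends there on the prior count. Il1rap, the accessory chain shared by these receptors, went the other way. It had 7.19, 6.21 and 7.72 TPM in rBMSCs and 20.3, 22.99 and 13.03 TPM in rEEOs, and passed the adjusted p with a smaller change (1.71 ± 0.29, adjusted p = 0.00236). Il1r1, Il1rl2, Il1rl1 and Il18r1 are direct neighbors in this order. Of the 4 the first 3 were called lower, against 13.3% of all genes tested. Il1rl2 met the count filter through rBMSCs only, so that it had to differ. Il36a and Il36rn, an IL-36 ligand and the antagonist of the family, were not tested and had counts in rEEOs only, at most 6 and 15 in a library.

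Of the IL-6 family ligands, Il6 and Il11 were called lower in rEEOs. Clcf1, a ligand acting on neurons and B cells, was higher in rEEOs by less than the threshold, with 5.48, 5.26 and 4.77 TPM in rBMSCs and 7.03, 12.4 and 15.65 TPM in rEEOs (log2 fold change 1.51 ± 0.42, edgeR adjusted p = 0.0188, or up to 0.0672 without any 1 rBMSCs library or rEEOs replicate 3). Il6, an inflammatory cytokine, had 28, 35 and 24 counts in rBMSCs and 0, 0 and 2 counts in rEEOs, a ratio of 43.6 (95% counting interval 11.7 to 366, adjusted p = 0.00161). Its promoter holds a κB match, as do those of Cxcl1, Cxcl6, Cxcl10, Cxcl11 and Ccl7. The log2 fold change of Il6 was -5.18, -4.50 without rEEOs replicate 1 and -7.89 without replicate 3, which depends on the prior count. Il11, with at most 29 counts in a library, had 1.16, 1.73 and 2.06 TPM in rBMSCs and 0.11, 0.57 and 0.23 TPM in rEEOs (-2.10 ± 0.65, adjusted p = 0.0283). Its call was lost without rBMSCs replicate 2 (adjusted p = 0.0774) or 3 (0.0818), without rEEOs replicate 1 (log2 fold change -1.58) or 3 (adjusted p = 0.0932) and with library size scaling alone, so it rests on single libraries. Lif, which in rodents is needed for implantation, had 21.2, 19.7 and 25.5 TPM in rBMSCs and 29.25, 4.31 and 9.36 TPM in rEEOs. The groups overlapped, and Lif did not pass (-0.73 ± 0.59, adjusted p = 0.308). Without rEEOs replicate 1 the value was -1.46 with an adjusted p of 0.0209.

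Lifr, the receptor chain of Lif, ranked 6 of 66 by mean level in rEEOs. It had 0.11, 0.09 and 0.22 TPM in rBMSCs and 379, 50.3 and 44.4 TPM in rEEOs (log2 fold change 9.98 ± 1.08, edgeR adjusted p = 3.62e-04). Replicate 1 was 8.53-fold above the lowest rEEOs library, and without it the value was 8.71, so the call did not rest on that library. Il6r, the ligand-binding chain for Il6, had 0.25, 0.21 and 0.18 TPM in rBMSCs and 3.91, 2.12 and 1.86 TPM in rEEOs (3.77 ± 0.32, adjusted p = 1.37e-04), with the call lost in limma on log2(TPM + 1). Il11ra1, the receptor of Il11, was lower, with 82.8, 85.5 and 80.5 TPM in rBMSCs and 7.95, 7.44 and 12.4 TPM in rEEOs (-2.89 ± 0.27, adjusted p = 1.98e-04). Il6st, the gp130 chain through which the whole family signals, had 86.5, 71.1 and 83.7 TPM in rBMSCs and 33.9, 10.5 and 14.7 TPM in rEEOs. It passed the adjusted p with a change just inside the threshold (-1.88 ± 0.31, adjusted p = 0.00228), and was called without rEEOs replicate 1 (-2.25) and in both limma fits. Osmr, the oncostatin M receptor chain and direct neighbor of Lifr, had 9.56, 8.11 and 8.89 TPM in rBMSCs and 17.65, 8.90 and 8.72 TPM in rEEOs. Its TPM ranges overlapped although the count test gave 0.84 ± 0.12 (adjusted p = 0.00130), and it did not pass in either limma fit (adjusted p up to 0.385). Thus the 5 receptors of the family were split, with Lifr and Il6r called higher, Il11ra1 called lower and the shared Il6st present in every library. Over all genes tested 16.3% were called higher and 13.3% lower.

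**Figure D3:**
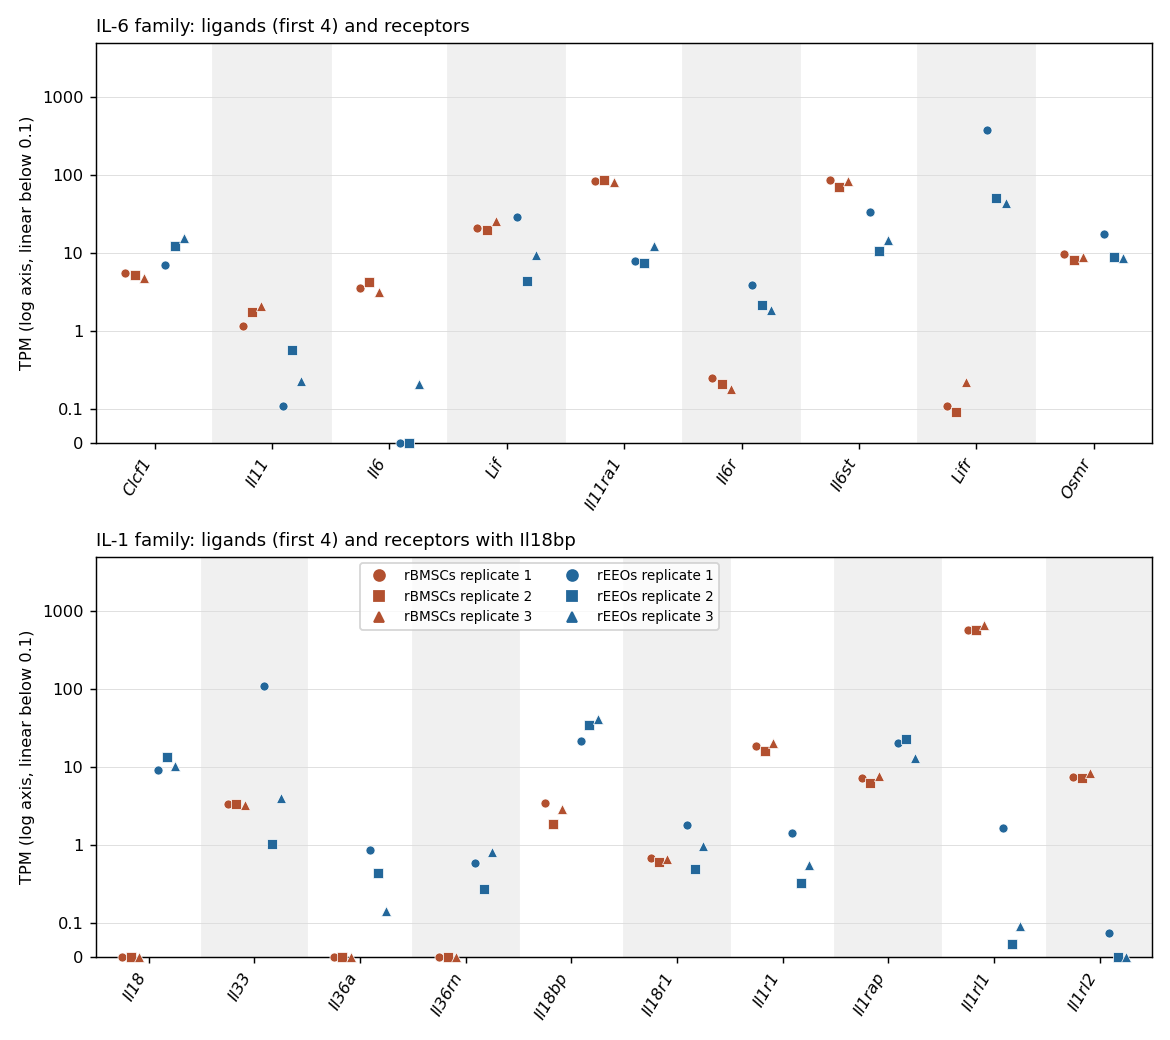
TPM (log axis, linear below 0.1) of the IL-6 family (upper panel) and the IL-1 family (lower panel) is plotted for each library. Il1rl1 is between 576 and 663 TPM in the rBMSCs libraries and at most 1.65 TPM in rEEOs, whereas Lifr is at most 0.22 TPM in rBMSCs and between 44.4 and 379 TPM in rEEOs.

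The IL-17 family was represented mainly by receptors. Il17rb, which with Il17ra forms the receptor of Il25, had no count in rBMSCs and 57.1, 11.8 and 22.9 TPM in rEEOs, at least 322-fold higher (edgeR adjusted p = 7.23e-04). Il17ra, the chain common to the family, had 43.5, 42.4 and 41.8 TPM in rBMSCs and 15.2, 6.92 and 9.28 TPM in rEEOs, lower by less than the threshold (log2 fold change -1.83 ± 0.18, adjusted p = 2.24e-04). Both chains of the Il25 receptor were thus detected in rEEOs, while Il25 had 1 count over all libraries. Il17rd, with at most 52 counts in a library, had 0.10, 0.09 and 0.06 TPM in rBMSCs and 0.75, 0.23 and 0.47 TPM in rEEOs (2.71 ± 0.36, adjusted p = 9.16e-04). The ligand Il17d had 4.30, 4.42 and 5.13 TPM in rBMSCs and 0.90, 0.71 and 1.79 TPM in rEEOs (-1.73 ± 0.44, adjusted p = 0.0131), and was called without rEEOs replicate 3 (-2.31).

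Il10rb, a chain shared by the receptors of Il10, Il22 and interferon lambda, had 17.5, 16.96 and 18.3 TPM in rBMSCs and 52.3, 44.5 and 45.2 TPM in rEEOs (log2 fold change 1.66 ± 0.14, edgeR adjusted p = 1.17e-04). This change was below the threshold, with little spread in either group. Il20rb, a receptor chain for IL-20 type ligands, had 45, 55 and 49 counts in rBMSCs and 3 in each rEEOs library, a ratio of 16.6 (95% counting interval 8.51 to 37.0, adjusted p = 1.05e-04), with the call lost in limma on log2(TPM + 1), where the log2 fold change was -1.26. Il10ra had 2 counts in all and Il20ra had 2.

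The cytokines Il7 and Tslp were called lower in rEEOs. Il7, a factor for lymphocyte precursors, had 10.01, 7.93 and 11.8 TPM in rBMSCs and 0.26, 0.31 and 0.22 TPM in rEEOs (log2 fold change -5.05 ± 0.27, edgeR adjusted p = 2.28e-05). Tslp, which acts on dendritic cells and innate lymphocytes, had 43, 42 and 38 counts in rBMSCs and 0, 0 and 2 counts in rEEOs, a ratio of 61.6 (95% counting interval 16.7 to 515, adjusted p = 9.21e-04). Its log2 fold change was -5.68, -5.00 without rEEOs replicate 1 and -8.39 without replicate 3, the last depending on the prior count. Crlf2, the receptor chain for Tslp, had 22.8, 25.7 and 23.1 TPM in rBMSCs and 27.6, 28.9 and 32.4 TPM in rEEOs, and narrowly did not pass (0.60 ± 0.22, adjusted p = 0.0527). Il15 had 11.2, 10.9 and 12.2 TPM in rBMSCs and 0.85, 3.79 and 3.82 TPM in rEEOs (-1.75 ± 0.56, adjusted p = 0.0326), and was called without rEEOs replicate 3 (-2.17). Its adjusted p went above 0.05 without any 1 rBMSCs library or without rEEOs replicate 2, up to 0.0896, and with library size scaling alone. Il15ra, which presents Il15 to lymphocytes, was higher, with no count in rBMSCs and 3.68, 4.27 and 3 TPM in rEEOs, at least 27.4-fold (adjusted p = 5.13e-04). Il13ra1, a chain of the IL-4 and IL-13 receptors, had 11.6, 11.7 and 12.7 TPM in rBMSCs and 30.9, 20.2 and 21.3 TPM in rEEOs (1.23 ± 0.12, adjusted p = 2.12e-04). Its partner chain Il4r was not analysed here. Il13ra1 and Mif were the members with expected counts that were not whole, a mark of reads shared with other features.

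Both IL-12 family genes tested were higher in rEEOs, at low levels, against 16.3% of all genes tested. Both met the count filter through rEEOs only, so that they had to differ. Il23a, the p19 subunit of IL-23, had 0.30, 0.28 and 0.32 TPM in rBMSCs and 2.99, 6.59 and 12.2 TPM in rEEOs (log2 fold change 4.90 ± 0.74, edgeR adjusted p = 0.00152), or 4.26 without rEEOs replicate 3. Its partner subunit Il12b had 1 count over all libraries. Il12rb2, a chain of the IL-12 receptor, had 1, 1 and 0 counts in rBMSCs and 495, 20 and 199 counts in rEEOs (8.09 ± 1.41, adjusted p = 0.00288), a 38.4-fold range among the rEEOs libraries in TPM. Without replicate 1 its value was 7.29. Ebi3 and Il27ra were not tested and had at most 5 counts in a library.

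Among colony stimulating factors, Csf3, the growth factor of neutrophils, had no count in rBMSCs and 225, 96.8 and 163 TPM in rEEOs, at least 663-fold higher (edgeR adjusted p = 7.24e-05). Csf1, the growth factor of macrophages, was abundant in both cell types, with 90.8, 82.5 and 92.4 TPM in rBMSCs and 122, 65.7 and 61.1 TPM in rEEOs. It did not pass (log2 fold change 0.17 ± 0.17, adjusted p = 0.406), and its sign turned in limma (-0.16). Il34, the second ligand of the Csf1 receptor, had 0.31, 0.29 and 0.05 TPM in rBMSCs and 3.17, 5.01 and 2.52 TPM in rEEOs (4.43 ± 0.54, adjusted p = 6.16e-04), with the call lost in limma on log2(TPM + 1). Csf3 and Il34 met the count filter through rEEOs only, so that they had to differ. Csf1r had at most 2 counts in any library. Csf2ra, a chain of the GM-CSF receptor, had 4.05, 3.45 and 2.86 TPM in rBMSCs and 1.91, 2.44 and 4.30 TPM in rEEOs, without a direction that held (0.15 ± 0.47, adjusted p = 0.788, and -0.37 without rEEOs replicate 3).

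Of the 5 TNF superfamily ligands 2 were called higher and 2 lower in rEEOs, against 16.3% and 13.3% of all genes tested. Tnfsf10 and Tnfsf18 met the count filter through 1 cell type only, so that they had to differ. Tnfsf10, known as TRAIL, which triggers apoptosis, had no count in rBMSCs and 14.1, 14.9 and 10.5 TPM in rEEOs, at least 166-fold higher (edgeR adjusted p = 2.43e-04). Tnfsf13, known as APRIL, a survival factor of plasma cells, had 0.76, 0.44 and 0.78 TPM in rBMSCs and 74.4, 57.2 and 46.5 TPM in rEEOs (log2 fold change 6.69 ± 0.23, adjusted p = 6.13e-06). Tnfsf12, known as TWEAK and the direct neighbor of Tnfsf13, went the other way, with 30.3, 30.75 and 30.65 TPM in rBMSCs and 3.97, 2.78 and 0.88 TPM in rEEOs (-3.37 ± 0.44, adjusted p = 7.72e-04). The assignment of reads between these neighboring genes was not examined. Tnfsf18, the ligand of GITR on T cells, had 5.52, 6.19 and 5.80 TPM in rBMSCs and 1, 1 and 4 counts in rEEOs (-6.07 ± 0.52, adjusted p = 1.33e-04), or -7.07 without rEEOs replicate 3. Tnfsf9, the ligand of 4-1BB, had at most 17 counts in a library and did not pass (-0.99 ± 0.59, adjusted p = 0.182), although it was called without rEEOs replicate 1 (-2.02, adjusted p = 0.00565).

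Mif, a constitutive cytokine of many cell types, had the highest level of the 66 genes in rEEOs, with 1539, 1792 and 2162 TPM against 208, 215 and 195 TPM in rBMSCs (log2 fold change 3.51 ± 0.29, edgeR adjusted p = 1.22e-04). Il16, a chemoattractant made as a larger precursor, had 1 count in each rBMSCs library and 38, 33 and 14 counts in rEEOs, a ratio of 28.3 (95% counting interval 9.35 to 139.8, adjusted p = 5.38e-04).

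The order of mean levels differed between the cell types. In rBMSCs the highest levels included Il1rl1 (605 ± 49.8 TPM), Mif (206 ± 9.94), Csf1 (88.6 ± 5.32) and Il11ra1 (82.9 ± 2.49, SD, n = 3). Il11ra1 and the next gene Il6st (80.4 ± 8.18) differed by less than the SD of Il6st. In rEEOs it began with Mif (1831 ± 313 TPM), Cxcl6 (446 ± 516), Ccl20 (418 ± 145), Cxcl1 (325 ± 161) and Csf3 (161 ± 63.9). From Cxcl6 to Cxcl1 the order did not hold against the spread, as Cxcl6 ranged below and above both others.

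The spread between libraries was wider in rEEOs. Genes of at least 5 CPM (counts scaled for library size) on average in the group were compared in CPM. The highest rEEOs library exceeded the lowest by a median of 2.25-fold over 37 of the cytokine genes and 1.61-fold over all genes. In rBMSCs the medians were 1.13-fold over 23 genes and 1.12-fold. The ranges of single genes are given in TPM, so they are not on the same scale as these medians. In TPM, Il33 (106-fold), Il12rb2 (38.4-fold), Cxcl6 (21.2-fold), Lifr (8.53-fold) and Lif (6.79-fold) had the widest ranges among the 37 genes in rEEOs. Each had its highest value in replicate 1. No single library was highest throughout, as replicates 1, 2 and 3 were highest in CPM for 15, 9 and 13 of the 37 genes. Cxcl1, Cxcl2, Cxcl10, Ccl2, Ccl7 and Ccl20 were highest in replicate 3. The narrowest ranges in TPM were those of Crlf2 (1.17-fold), Il10rb (1.18-fold) and Cxcl16 (1.25-fold). The order of the genes can differ in CPM.

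**Figure D4:**
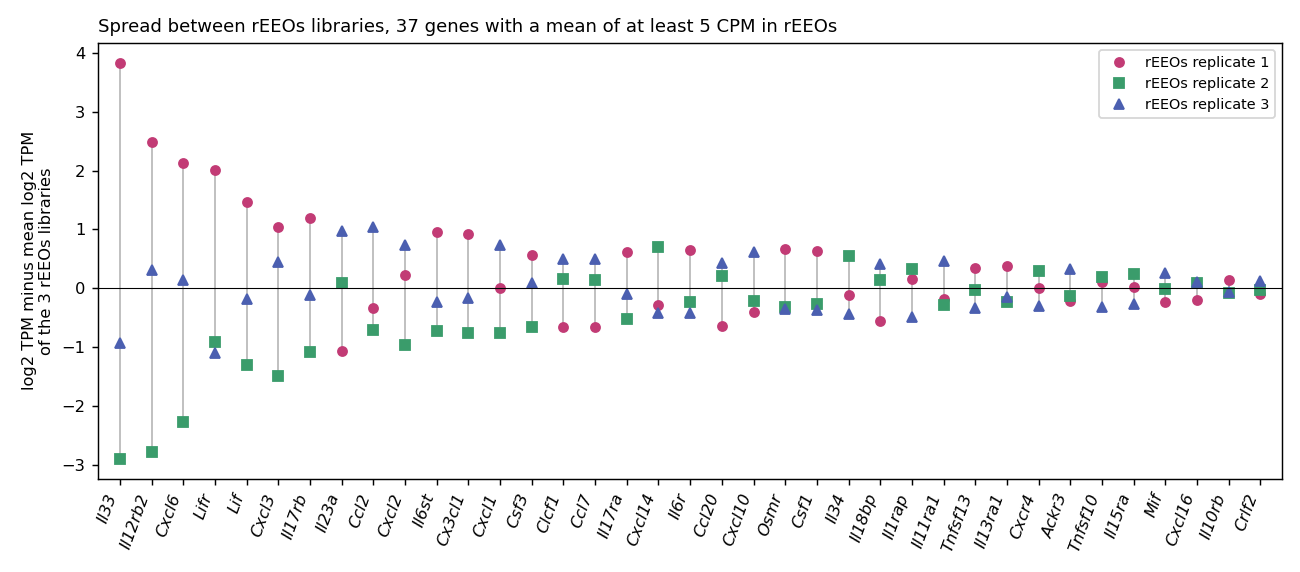
For the 37 genes averaging 5 CPM or more in rEEOs, the log2 TPM of each rEEOs library is plotted as its distance from the mean of the 3 libraries, with genes ordered by their range. Il33, Il12rb2, Cxcl6, Lifr and Lif on the left are highest in replicate 1, and the genes on the right differ little between libraries.

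Signaling genes downstream of these receptors were listed separately. Of 59 listed genes of the IL-1, TNF and NF-κB pathway and the JAK-STAT pathway, 42 were held and tested. Of these, 7 were called higher in rEEOs and 1 lower, against 16.3% and 13.3% of all genes, with a median log2 fold change of 0.42. In the NF-κB list 5 of 25 were called higher, and in the JAK-STAT list 2 of 17 were called higher and 1 lower. Sigirr, Bcl3 and Nfkbiz had the largest log2 fold changes of the 42. Sigirr, an inhibitory receptor of the IL-1 and Toll pathways, had no count in rBMSCs and 37.6, 35.7 and 29.75 TPM in rEEOs (edgeR adjusted p = 6.01e-05). Bcl3, a nuclear IκB protein, had 0.54, 0.56 and 0.17 TPM in rBMSCs and 33.5, 40.6 and 37.3 TPM in rEEOs (log2 fold change 6.68 ± 0.44, adjusted p = 4.73e-05). Nfkbiz, another nuclear IκB protein that serves a subset of NF-κB targets, had 1.24, 1.07 and 1.3 TPM in rBMSCs and 42.7, 97.8 and 143 TPM in rEEOs (6.64 ± 0.65, adjusted p = 2.37e-04).

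The other called genes were Nfkbia, the IκBα inhibitor (log2 fold change 5.83 ± 0.39), Tnfaip3, the ubiquitin-editing inhibitor A20 (4.04 ± 0.62), the phosphatase Ptpn6 (6.36 ± 0.28), and the cytokine signaling inhibitors Socs3 (2.93 ± 0.38) and Socs5. Socs5 had 34.1, 31.25 and 34.6 TPM in rBMSCs and 12.49, 3.79 and 4.14 TPM in rEEOs (-2.15 ± 0.35, edgeR adjusted p = 0.00198). Its call was lost without rEEOs replicate 2 (-1.92) or 3 (-1.96) and with library size scaling alone (-1.75). The NF-κB subunits, named after their values were seen, had log2 fold changes of 0.02 ± 0.17 for Nfkb1, 0.55 ± 0.16 for Nfkb2, 0.40 ± 0.13 for Rela and 0.74 ± 0.34 for Relb, all below the threshold of 2. Nfkb2 and Rela passed the adjusted p (0.0208 and 0.03), and Nfkb1 and Relb did not, but Nfkb2 and Rela no longer passed in limma or without any 1 rBMSCs library or rEEOs replicate 3. The sign for Nfkb1 turned in limma and without rEEOs replicate 1 (-0.13).

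**Figure D5:**
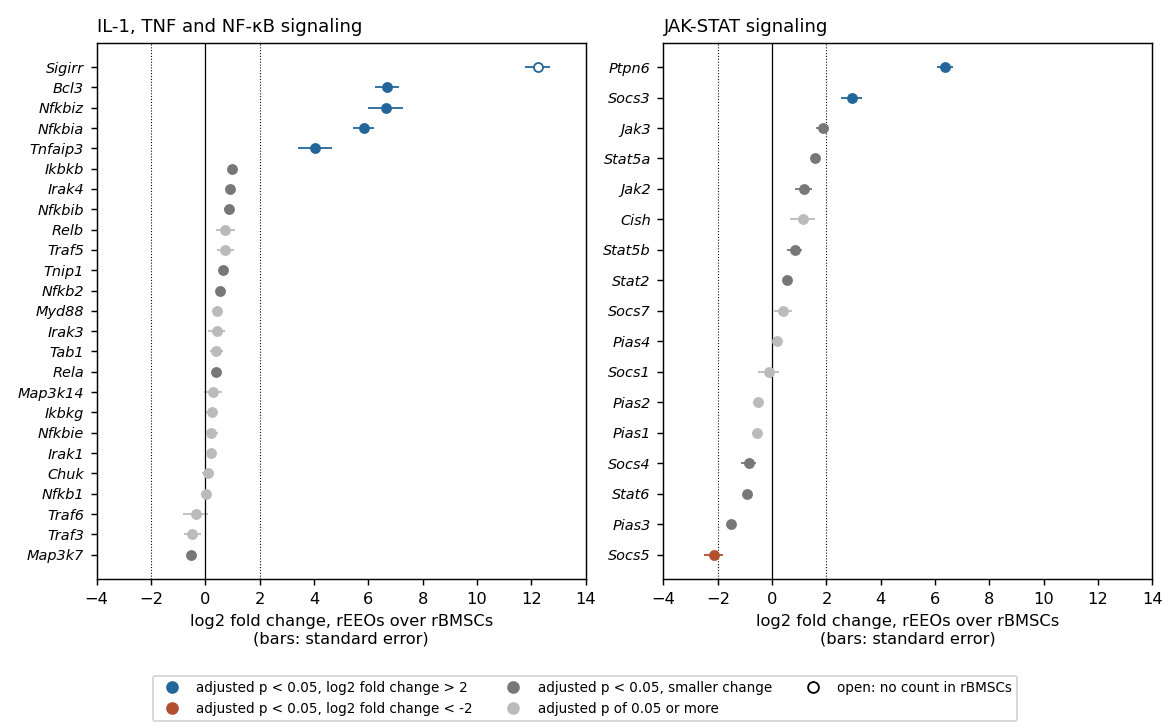
The log2 fold change of rEEOs over rBMSCs (bars are standard errors) is plotted for the 25 NF-κB pathway genes (left) and the 17 JAK-STAT genes (right). Sigirr, Bcl3, Nfkbiz, Nfkbia and Tnfaip3 lie above 2 on the left, and the remaining 20 genes lie between -2 and 2.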

How the data were processed

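Total RNA from 3 rEEOs and 3 rBMSCs samples was poly(A)-selected and sequenced by the authors on a DNA nanoball platform. Reads were trimmed with Trim Galore and aligned with Bowtie2 2.2.5, and the build Rnor_6.0 is named in the submitters' processing notes. The deposited table holds an expected count (estimated with RSEM by the authors, not normalized), a TPM and an FPKM for each gene and library. The deposited FPKM was compared with TPM only by its sum in each library, which was 0.593 to 0.99 of the TPM sum, and was not used otherwise. Whether counting used strand was not given in the sources used here. The table held here stops within its last row, after 23 of 27 fields, and carries 81.3% to 82.7% of a library's TPM, and other genes were not analysed here. The authors' pooled averages were not used.

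After rounding, the 10607 genes that reached 10 counts in 3 or more libraries were tested with edgeR 4.0.16 in R 4.3.3 (TMM factors, glmQLFit, glmQLFTest, cell type as the only term), with Benjamini-Hochberg adjustment over all of them. The standard error is the size of the log2 fold change over the square root of F. Calls needed an adjusted p below 0.05 and an absolute log2 fold change above 2. A level of 3 counts in a library, 0.181 to 0.262 CPM, was the floor for bounds, and counting intervals are exact at 95%. PCR reads without molecular identifiers are not independent molecules, so intervals and floors cover counting error only. An exact two-sided permutation test of 3 against 3 cannot go below 0.1 and was not used. The script was tested on simulated data. Replicates of a group differed by more than sampling noise, which technical libraries can also do, so separate cultures are not shown. Each library was counted as 1 sample.

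The genes, their roles, the ligand and receptor pairs and the pathway lists were chosen with earlier results of these data known. Up to 5 members per role with the highest TPM, the 5 called members at either end of the fold changes, and the members of the pairs were to be named, with the 3 called pathway genes at either end. Others named beyond this rule were chosen after their values were seen. Alternatives were DESeq2 1.42.0, its size factors, library size only, other count filters and thresholds, limma 3.58.1 on log2(TPM + 1) or log2(TPM + 0.1), each library left out and a replicate block. The values of 1 member, which is included in the counts and sums, are not reported here. Promoters are RefSeq GRCr8 entries of 300 bases. Figures used matplotlib 3.10.9.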

Additional observations from a re-analysis of the deposited data

How the results depend on the processing

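The count of called members stayed within 1.5 times of the main 43 under the alternatives run. It was 46 of 66 members fitted with DESeq2, 43 of 59 with DESeq2 size factors and 44 of 59 with library size only. With count filters of 1 and 50 it was 47 of 66 and 31 of 43. With limma on log2(TPM + 1) and log2(TPM + 0.1) it was 35 and 44 of 55, and with each library left out 42 to 44 of 59. Of all genes fitted, 3678 of 13709 were called with DESeq2. With the same count filters 3737 of 13709 and 2494 of 9475 were called. With the same limma fits 2322 and 2866 of 10076 were called. The call of 43 of the 59 members kept its side of the threshold and its direction under every alternative that gave a value. Scaling by library size only moved the median log2 fold change of all genes to 0.46, and limma on TPM moved it to -0.22 and -0.24, so changes near 2 depend on the scaling. Over all genes, 1121 were called higher with limma on log2(TPM + 1). With an absolute log2 fold change above 1, 4950 genes were called, 2663 higher and 2287 lower, and without a threshold on the fold change 6728, 3529 higher and 3199 lower. Among the signaling genes called lower, there were 0 with library size only, 0 to 1 with a library left out and 2 with a log2 fold change above 1, and without a threshold 23 were called, 18 higher and 5 lower. The sign reversed for Csf2ra (-0.24 and -0.32 in the limma fits, -0.37 to 0.51 with a library left out), Csf1 (-0.16 in both limma fits) and Nfkb1 (-0.24 in both limma fits, -0.13 to 0.17 with a library left out). The cause was not tested.

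Whether the replicate numbers pair the samples was not settled by the correlations between libraries. The deviations of same-numbered rEEOs and rBMSCs libraries correlated across 10607 genes at 0.17, 0.19 and -0.17 for replicates 1, 2 and 3, and replicates 2 and 3 of rBMSCs correlated best with rEEOs libraries of another number. With the replicate number as a block, 43 members were called, 28 higher and 15 lower, and the block changed no call among members. Over all genes 3231 were called with the block. Genes near the floor of 3 counts, such as Cxcl11, Il6, Tslp and Il11, are limited by depth.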
